A study of Mus musculus with 3 samples.

Results

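Gamma-delta (γδ) T cells were taken from 3 single-cell RNA-seq libraries of mouse tumour tissue as the barcodes that held RNA of the T cell receptor delta constant gene, Trdc. A barcode was a member when mitochondrial genes gave no more than 20% of its UMIs (unique molecular identifiers, each counting 1 captured RNA molecule), 200 or more genes were seen, and it held at least 1 UMI of Trdc and at least 1 UMI of the CD3 genes Cd3d, Cd3e and Cd3g together. It also had to hold 0 UMIs of Cd8b1, Cd4 and Ncr1, at most 1 UMI of the complement genes C1qa, C1qb and C1qc together and at most 2 UMIs of the keratin genes Krt8 and Krt18 together. These values chose the cells, so the levels of the named genes in them are a description and were not tested. The rule found 57 cells among 32801 kept barcodes, which is 0.174% (exact Clopper-Pearson 95% interval 0.132 to 0.225). Of the 57 cells, 10 came from the CKO+RI-labelled library, 25 from Flox+RI and 22 from Flox+ICI.

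γδ T cells carry an antigen receptor built from a gamma and a delta chain in place of the alpha and beta chains of CD4 and CD8 T cells. In mice they leave the thymus largely committed to 1 of a pair of programmes: interleukin-17 (Il17a, Il17f) production, sustained by interleukin-23 through Il23r, or interferon-gamma (Ifng) production and killing under T-bet (Tbx21). Both kinds reside in lung and tumours, where the first is known for drawing in neutrophils and the second for acting against tumour cells.

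All 3 libraries came from mice that carried Lewis lung carcinoma cells with a knockdown of Lkb1 (the line LLC1-sgLkb1). Lung lesions were seeded through the tail vein and served as the side left without radiation, and 3 weeks later the same line was placed under the skin to give the side to be irradiated. CKO+RI stands for a host labelled as lacking Sfrp2 (a secreted Wnt-binding protein) where the Col1a2 promoter is active, that is in fibroblasts, given radiation plus an immune checkpoint inhibitor. Flox+RI stands for an Sfrp2 fl/fl host given the same pair of treatments, and Flox+ICI for an Sfrp2 fl/fl host given the inhibitor alone. The labels give the tissue as tumour only, so the lesion sampled is not known, and each group is 1 library with no replicate. Every ratio between libraries below therefore compares those libraries and not the treatments.

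The libraries held 9300 barcodes (CKO+RI), 13340 (Flox+RI) and 10842 (Flox+ICI), with 161250286, 101840883 and 75543561 UMIs in that order. Kept barcodes of the CKO+RI-labelled library were deeper (median 14467.5 UMIs) than those of Flox+RI (2923) and Flox+ICI (3254.5). Sfrp2, the gene named by the knockout label, had 46 UMIs over the kept barcodes of the CKO+RI-labelled library (0.286 UMIs per 1000000 UMIs of the summed cells, CPM), 12 in Flox+RI (0.119 CPM) and 24 in Flox+ICI (0.319 CPM), so its level under the knockout label was above that of Flox+RI. None of its UMIs lay in a γδ T cell. Between 29 and 37 barcode sequences were shared by each pair of libraries, and none of them belonged to a γδ T cell. Among the γδ T cells, 0 in the CKO+RI-labelled library, 1 in Flox+RI and 1 in Flox+ICI were marked as doublets and were kept.

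The gamma chain constant genes are printed first because counting them depends on how far their sequences differ. They lie on chromosome 13, and the lines give the first 120 bases of their first exon in coding direction (GRCm38, GENCODE M21): Tcrg-C1 at chr13:19214103-19214222 on the plus strand, Tcrg-C2 at chr13:19307432-19307551 on the minus strand and Tcrg-C4 at chr13:19344558-19344677 on the plus strand. Capitals mark bases that differ from Tcrg-C1.
Tcrg-C1: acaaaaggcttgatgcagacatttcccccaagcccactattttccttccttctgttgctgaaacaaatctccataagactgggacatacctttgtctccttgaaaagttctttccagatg
Tcrg-C2: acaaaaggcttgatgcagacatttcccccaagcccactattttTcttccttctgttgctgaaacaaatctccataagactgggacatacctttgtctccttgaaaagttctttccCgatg
Tcrg-C4: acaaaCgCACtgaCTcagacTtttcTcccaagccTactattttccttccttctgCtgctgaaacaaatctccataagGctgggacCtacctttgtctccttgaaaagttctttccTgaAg
Tcrg-C2 differs from Tcrg-C1 at 2 of these 120 bases and at 9 of the 330 bases of the whole exon (97.27% identity). Tcrg-C4 differs at 14 of the 120 and at 59 of the 330 (82.12% identity). Whether reads from shared stretches of Tcrg-C1 and Tcrg-C2 were split between them or dropped is not known, so the levels of these genes are uncertain. Only the first exon was compared, and the part of the transcripts that the reads cover is not known. They are also given as 1 sum together with the gamma chain variable genes.

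The promoters of the genes that mark the interleukin-17 side are printed with the RORE core AGGTCA, the 6 letters at the centre of the elements that the nuclear receptor Rora binds, in capitals on either strand (AGGTCA or TGACCT). Each sequence is the 250 bases before the RefSeq start of the gene (GRCm38.p6), read in the direction of the gene: Il17a, which encodes the cytokine, at chr1:20730655-20730904 on the plus strand, Il17f, its neighbour and paralog, at chr1:20784271-20784520 on the minus strand, and Il23r, the receptor subunit, at chr6:67491856-67492105 on the minus strand.
Il17a: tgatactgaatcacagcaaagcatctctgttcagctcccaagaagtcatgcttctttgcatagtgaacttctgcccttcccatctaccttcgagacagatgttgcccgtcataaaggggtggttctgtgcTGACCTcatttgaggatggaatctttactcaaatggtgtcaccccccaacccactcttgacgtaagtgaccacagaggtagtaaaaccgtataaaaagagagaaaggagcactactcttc
Il17f: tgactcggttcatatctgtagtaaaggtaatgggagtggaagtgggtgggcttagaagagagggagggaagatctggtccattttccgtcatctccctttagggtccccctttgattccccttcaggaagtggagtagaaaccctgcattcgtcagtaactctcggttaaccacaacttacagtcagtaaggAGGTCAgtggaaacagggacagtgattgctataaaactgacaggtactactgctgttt
Il23r: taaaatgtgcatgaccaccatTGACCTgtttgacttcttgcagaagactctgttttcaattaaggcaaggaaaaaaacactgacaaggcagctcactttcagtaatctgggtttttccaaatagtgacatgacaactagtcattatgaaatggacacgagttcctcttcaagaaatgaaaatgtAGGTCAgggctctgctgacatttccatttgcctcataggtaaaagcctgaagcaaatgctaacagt
Il17a and Il17f each hold 1 match, 120 and 58 bases before the start, and Il23r holds 2, at 229 and 66 bases. The same 6 letters stand in windows of this length in 4260 of 27025 genes (15.76%). They stand in 6 of the 23 matched genes of the type 17 list defined below (26.09%) and in 1 of the 20 matched genes of the type 1 list (5.0%). A match is a run of letters and not a binding site.

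The label of the cells was checked with receptor genes that the rule did not use. Tcrg-C1, the marker gene of the gamma chain, had 15 UMIs in 6 of 10 γδ T cells of the CKO+RI-labelled library, 28 UMIs in 17 of 25 of Flox+RI and 4 UMIs in 4 of 22 of Flox+ICI. Together that is 27 of 57 γδ T cells (47.4%), against 1 of 502 CD8 T cells and 0 of 3073 macrophages. CD8 T cells were barcodes with CD3 and Cd8b1 UMIs and none of Trdc, Cd4 and Ncr1, and the macrophage gate (C1q sum of at least 5, CD3 genes at 0) served as a measure of free RNA in cells that do not use T cell genes. Macrophages that held CD3 RNA were left out by this gate, so its shares, here and below, can understate free T cell RNA. The median depth was 1863 UMIs in γδ T cells, 2542 in CD8 T cells and 5787 in macrophages. Tcrg-C2 was found in 7 γδ T cells (12.3%) and in 29 CD8 T cells (5.78%), and Tcrg-C4 in 10 γδ T cells and 3 CD8 T cells. Counting the gamma chain constant and variable genes (all Tcrg genes and Trgv2) as 1 sum, 32 of 57 γδ T cells held a gamma chain UMI: 7 in the CKO+RI-labelled library, 18 in Flox+RI and 7 in Flox+ICI. Variable genes were rarely seen, with Trdv4 in 6 cells, Trgv2 in 6, and Tcrg-V4 and Tcrg-V6 at 1 UMI each.

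Beta chain constant RNA was also present. Trbc1 or Trbc2 had a UMI in 40 of the 57 γδ T cells (7 in the CKO+RI-labelled library, 19 in Flox+RI and 14 in Flox+ICI). Of these 40 cells, 23 held a gamma chain UMI as well and 17 did not, 9 cells held a gamma chain UMI only and 8 held neither. Trac, the alpha chain constant gene, was found in 4 of 57 γδ T cells (7.02%), against 250 of 502 CD8 T cells (49.8%). Trbc2 was found in 35 γδ T cells (61.4%), against 400 CD8 T cells (79.7%) and 1.17% of macrophages. Beyond the Trdc that chose the cells, the check thus found a gamma chain in 32 of 57 and alpha chain RNA in few, and the part of the beta chain RNA in the results was not tested. To see how often Trdc stands beside other lineage genes, the CD8 and CD4 gates were also counted with no criterion on Trdc. It was then found in 0 of 502 barcodes of the CD8 gate, which allows a share of up to 0.598% at 3 counts. It was also found in 1 of 210 barcodes of the CD4 gate and in 1 of 3073 macrophages. Among NK cells 7 of 107 held it: 5 of 48 in the CKO+RI-labelled library, 0 of 7 in Flox+RI and 2 of 52 in Flox+ICI.

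Many members lay at the edge of the rule. Trdc stood at exactly 1 UMI in 31 members, of which 12 held Cd163l1 and 13 Tcrg-C1, and at 2 or more in 26, of which 17 held Cd163l1 and 14 Tcrg-C1. The CD3 sum was exactly 1 in 12 members and the C1q sum exactly 1, its upper limit, in 14, and 16 barcodes with Trdc were outside for want of a CD3 UMI alone, 3 of them with Cd163l1. With every other criterion met and Trdc at 0 there were 1196 barcodes, of which 19 held Cd163l1 and 17 Il17a.

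γδ T cells made up 0.111% of kept barcodes in the CKO+RI-labelled library (0.0531 to 0.203), 0.191% in Flox+RI (0.124 to 0.282) and 0.206% in Flox+ICI (0.129 to 0.311). Among barcodes with a CD3 UMI they were 1.98% of 504 in the CKO+RI-labelled library (0.955 to 3.62), 4.18% of 598 in Flox+RI (2.72 to 6.11) and 2.49% of 882 in Flox+ICI (1.57 to 3.75). The intervals overlap between all 3 libraries on both denominators. With every barcode thinned to 1000 UMIs the rule found 5 of 8289 barcodes (0.0603%), 14 of 8878 (0.158%) and 12 of 9140 (0.131%) in the same order, so the CKO+RI-labelled library had the lowest share by each measure. Intervals here and below cover counting error only, not differences between mice, and the depth that sets whether a Trdc molecule is seen differed between libraries (γδ T cell medians of 2385.5, 2021 and 1241.5 UMIs).

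**Figure D1:**
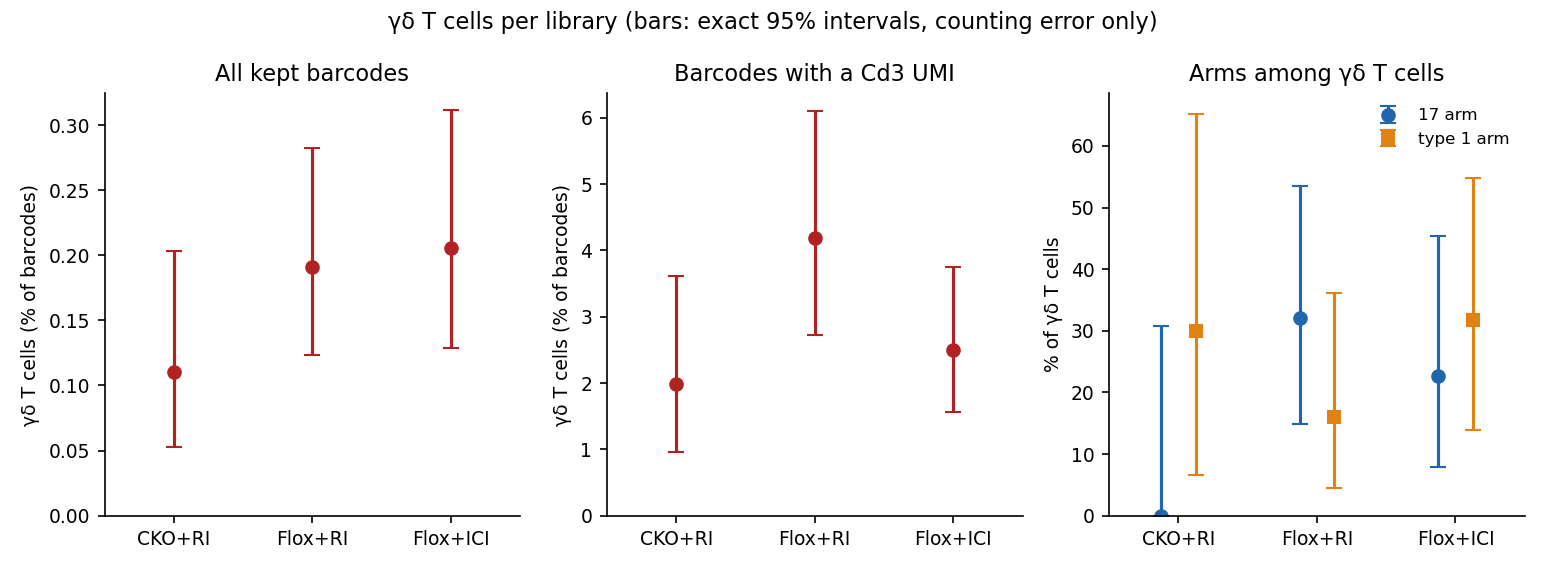
Share of γδ T cells (percent) among kept barcodes and among barcodes with a CD3 UMI, and share of γδ T cells in the 17 arm and the type 1 arm, for each of the 3 libraries. Points are shares of cells and bars are exact 95% intervals for counting error only; the bars of the libraries overlap in every panel.

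Il17a RNA was found in 6 of the 57 γδ T cells (10.5%, 3.96 to 21.5): 1 cell with 1 UMI in the CKO+RI-labelled library, 3 cells with 3 UMIs in Flox+RI and 2 cells with 3 UMIs in Flox+ICI. No CD8 T cell and 1 of 3073 macrophages held it. Il23r, the receptor that sustains interleukin-17 production, was found in 11 γδ T cells (19.3%, 10.05 to 31.9), with 1, 6 and 4 UMIs in the 3 libraries in the same order, in 0 CD8 T cells and in 2 macrophages. Il17f was found in 3 γδ T cells, in 4 CD8 T cells (0.797%) and in 0.553% of macrophages. Il22, another cytokine of this arm, and Csf2 were at 0 UMIs in all 57 cells, and Ccr6 and Sox13, a chemokine receptor and a factor of interleukin-17 γδ cells, had 1 UMI each. CD4 T cells, gated like CD8 T cells but on Cd4, held some of these genes too. After thinning to equal depth, Il23r was found in 4 of 199 CD4 T cells (2.01%) and 4 of 53 γδ T cells (7.55%). Il17a was found in 1 (0.503%) and 3 (5.66%) in the same order. Il17f was found in 1 and 1, Il22 in 1 and 0, and Ccr6 in 3 and 1. The exact intervals overlap for Il23r and for Il17a.

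Ifng RNA was found in 5 γδ T cells (8.77%, 2.91 to 19.3), with 1 UMI in the CKO+RI-labelled library, 5 in Flox+RI and 3 in Flox+ICI, against 200 of 502 CD8 T cells (39.8%) and 0.521% of macrophages. Tbx21, which encodes T-bet, was found in 10 γδ T cells (17.5%), against 189 CD8 T cells (37.6%). Il12rb2, a receptor subunit for interleukin-12, was found in 8 γδ T cells, and Eomes, a factor of killer cells, had 1 UMI. No γδ T cell held both Il17a and Ifng. With γδ T cells thinned to 1000 UMIs (53 cells, 4 shallower cells left out), Il17a remained in 3 cells and Ifng in 3 (5.66% each), against 0 and 112 (23.4%) of the 478 CD8 T cells deep enough.

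Cd163l1, a scavenger receptor gene known from interleukin-17 γδ T cells of mice, marked more of the cells than any cytokine gene did. It had 14 UMIs in 4 of 10 γδ T cells of the CKO+RI-labelled library, 40 UMIs in 14 of 25 of Flox+RI and 19 UMIs in 11 of 22 of Flox+ICI. That is 29 of 57 γδ T cells (50.9%, 37.3 to 64.4), against 6 of 502 CD8 T cells (1.20%) and 3 of 3073 macrophages (0.0976%). After thinning it was still found in 22 of 53 γδ T cells (41.5%) and in 2 of 478 CD8 T cells (0.418%). Of the other genes of the list, Rora, a nuclear receptor gene, was seen in 33 γδ T cells, Il7r, the interleukin-7 receptor, in 32, Blk, a Src-family kinase, in 21, Il1r1, the interleukin-1 receptor, in 17, and Zbtb16, which encodes PLZF, in 16. Rora and Il7r were common in other T cells too. After thinning, Rora was found in 49.1% of γδ, 37.2% of CD4 and 23.0% of CD8 T cells. Il7r was found in 34.0%, 28.1% and 15.9% in the same order. Zbtb16 also marks NKT and MAIT cells, which use alpha and beta chains. Of the 16 γδ T cells with Zbtb16, 13 held a gamma chain UMI, 11 a beta chain UMI and 1 a Trac UMI.

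Each γδ T cell was assigned to an arm by 7 genes. The 17 arm had a UMI of Il17a, Il17f or Il23r and none of Ifng, Tbx21, Eomes or Il12rb2, and the type 1 arm the reverse. The 17 arm held 13 cells: 0 of 10 in the CKO+RI-labelled library (exact interval 0 to 30.8%), 8 in Flox+RI (32.0%, 14.9 to 53.5) and 5 in Flox+ICI (22.7%, 7.82 to 45.4). The type 1 arm held 14 cells, 3 in the CKO+RI-labelled library (30.0%, 6.67 to 65.2), 4 in Flox+RI (16.0%, 4.54 to 36.1) and 7 in Flox+ICI (31.8%, 13.9 to 54.9). The 1 Il17a cell of the CKO+RI-labelled library was among 3 cells with genes of both arms, and 27 cells had genes of neither. The intervals of each arm overlap between all 3 libraries. A gamma chain UMI was found in 8 of 13 cells of the 17 arm and in 6 of 14 of the type 1 arm, and a beta chain UMI in 8 and 10. In Flox+ICI 0 of the 7 type 1 arm cells held a gamma chain UMI and 5 held a beta chain UMI, so whether all cells of this arm carry a γδ receptor cannot be told from these counts.

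The rest of each programme was counted in the cells of each arm. A type 17 list of 28 genes and a type 1 list of 25 genes (cytotoxic, chemokine and killer-receptor genes) were used, and the arm genes were set aside, which leaves 25 and 21 genes. Cells of the 17 arm held a median of 10 of the remaining type 17 genes (range 6 to 14) and 1.0 of the remaining type 1 genes (range 0 to 4). Cells of the type 1 arm held a median of 2.0 type 17 genes (range 0 to 8) and 5.0 type 1 genes (range 0 to 9). Cells of neither arm held a median of 8.0 type 17 genes (range 0 to 16) and 1.0 type 1 genes, and 18 of these 27 cells held Cd163l1. Summed over these remaining genes, UMIs of the type 17 list outnumbered those of the type 1 list in 13 of 13 cells of the 17 arm, in 6 of 14 of the type 1 arm (0 of 3 in the CKO+RI-labelled library, 2 of 4 in Flox+RI and 4 of 7 in Flox+ICI) and in 22 of 27 of neither; the lists differ in length, so this is a count of cells and not a comparison of levels.

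**Figure D2:**
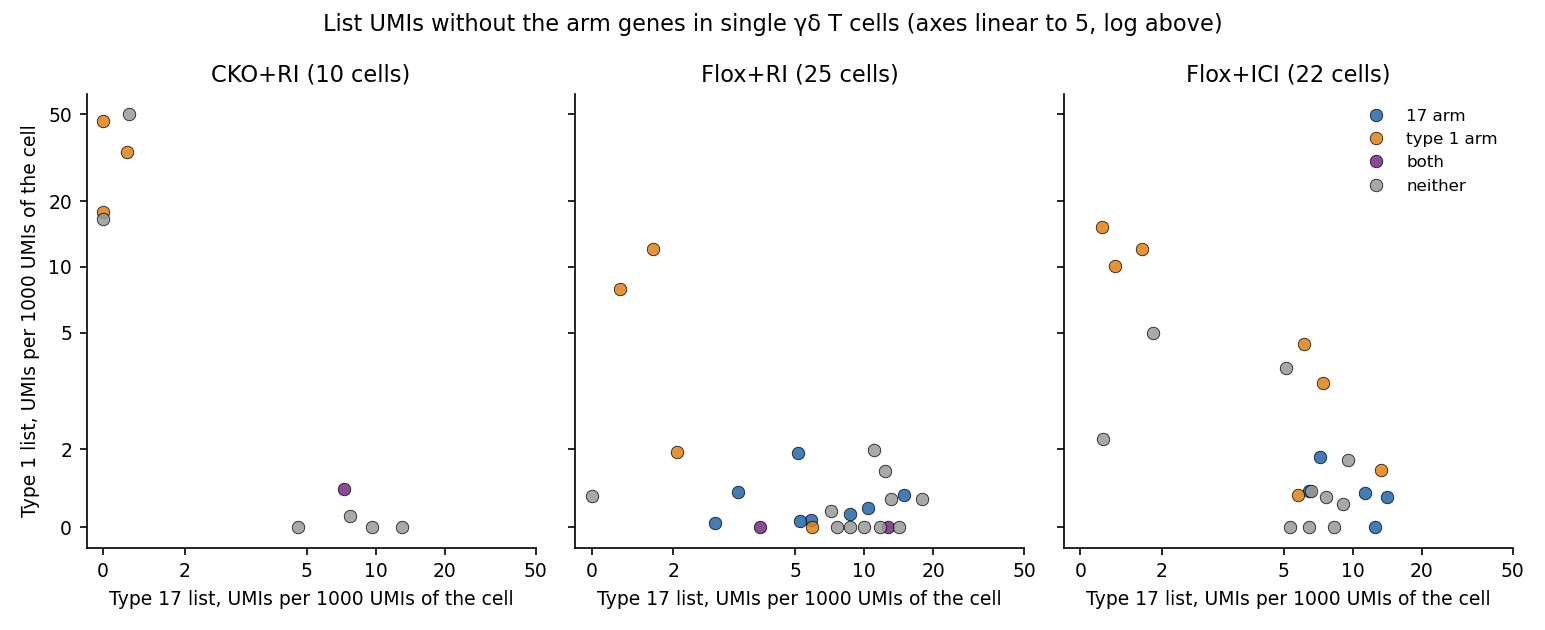
Each point is 1 γδ T cell; the x axis is the UMIs of the type 17 list and the y axis those of the type 1 list, both without the 7 arm genes, per 1000 UMIs of the cell, on axes linear to 5 and logarithmic above, with 1 panel per library and colours for the arms. The 13 cells of the 17 arm all lie low on the y axis, and in the CKO+RI-labelled library the cells fall into 5 with more type 17 and 5 with more type 1 UMIs.

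Cd163l1 and Ccl5, a chemokine gene of effector T and NK cells, were rarely found in the same cell. Cd163l1 marked 29 γδ T cells and Ccl5 marked 15, 5 in each library, 1 cell held both, and 14 cells, with a median of 8.0 type 17 genes, held neither. This is 3.45% of the Cd163l1 cells and 6.67% of the Ccl5 cells. Nkg7, a granule protein gene of killer cells, was found in 1 of the 29 Cd163l1 cells and in 11 of the 15 Ccl5 cells. A gamma chain UMI was found in 20 of the Cd163l1 cells and in 7 of the Ccl5 cells, and a beta chain UMI in 20 and 11. Per cell, Ccl5 reached 37, 27, 58, 46 and 66 UMIs in the 5 Ccl5 cells of the CKO+RI-labelled library, 1, 8, 1, 1 and 15 in those of Flox+RI and 5, 11, 1, 8 and 21 in those of Flox+ICI. In UMIs all 5 cells of the CKO+RI-labelled library were above every Ccl5 cell of the other libraries. Per 1000 UMIs of the cell they overlapped, with 10.9 to 37.2 in the CKO+RI-labelled library, 0.162 to 11.3 in Flox+RI and 0.358 to 11.0 in Flox+ICI.

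No library had 10 cells in both arms, so the arms were compared as pooled sums with no test. The sums were 39189 UMIs in the 17 arm, 31716 of them from Flox+RI, and 32423 UMIs in the type 1 arm. Of 495 genes with at least 20 UMIs together, 45 were at least 2-fold higher in the 17 arm (9.09%) and 46 at least 2-fold lower (9.29%), 18.4% in either direction. Of the type 17 list, 8 further genes could be compared and 4 of them were at least 2-fold higher in the 17 arm, 0 lower, with a median log2 ratio of 0.96 against 0.06 over all 495 genes. Of these 4 genes Cd163l1, Tmem176a and Tmem176b reached the minimum only through the 17 arm, where they were high, so the filter largely set the direction of the list. Cd163l1 had 22 UMIs in the 17 arm and 1 in the type 1 arm (ratio of levels 18.2, exact conditional 95% interval 2.94 to 751). Tmem176a and its neighbour Tmem176b, membrane protein genes of type 17 lymphocytes, had 28 and 21 UMIs in the 17 arm, against 4 and 3 in the type 1 arm (5.79 for each, 2.03 to 22.7 and 1.73 to 30.3).

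Among genes off both lists, Cd74, the invariant chain of class II antigen presentation, had 26 UMIs in the 17 arm and 1 in the type 1 arm (21.5, 3.53 to 882). Of these 26 UMIs 15 lay in 1 doublet-marked Flox+RI cell, which held 9566 of the 39189 UMIs of the arm; without it 11 UMIs were left and the gene was under the minimum of 20, as was Cd163l1 (18 and 1 UMIs). Capg, an actin-capping protein gene, had 33 and 4 UMIs (6.83, 2.43 to 26.5). Ldha, which encodes lactate dehydrogenase A, had 54 and 13 (3.44, 1.85 to 6.86), of which the same cell held 24 (ratio 2.53 without it). On the other side Ccl5 had 1 UMI in the 17 arm and 218 in the type 1 arm (ratio 0.0038), and Nkg7 had 0 and 38 (ratio at most 0.0843). Ms4a4b, a membrane protein gene of T cells, had 1 and 31 (0.0267), Prkch, a protein kinase C gene, 1 and 30 (0.0276), and Plac8 0 and 21 (at most 0.159). Cd74, Capg, Ldha, Ccl5, Nkg7, Ms4a4b, Prkch and Plac8 all reached the minimum only through the arm where they were high. The filter therefore bears on their direction. Trbc1 was lower in the 17 arm (5 against 18 UMIs, ratio 0.230), while Rora (24 against 22, ratio 0.903) and Il7r (12 against 15, ratio 0.662) were not past 2-fold in either direction. The arms drew on the libraries unequally, and the 91 genes past 2-fold became 44 without Flox+RI, 44 without Flox+ICI and 93 without the CKO+RI-labelled library.

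Against CD8 T cells, γδ T cells had higher RNA of 11 of the 19 tested type 17 genes and lower RNA of 10 of the 21 tested type 1 genes, and no member of either list was called the other way. UMIs were summed per library and cell type and tested with edgeR's quasi-likelihood test with library as a block (12 sums, 3139 genes, Benjamini-Hochberg adjustment, threshold 0.05), leaving out the genes of the gates. It called 69 genes (2.2%), 42 higher in γδ T cells (1.34%) and 27 lower (0.86%), while DESeq2 called 52 higher and 15 lower. The median log2 fold change was 3.34 for the type 17 genes, -2.19 for the type 1 genes (-1.91 with genes at 0 UMIs set to 3 UMIs) and -0.06 for all genes. A filter on low counts set which list members were tested, and a gene could pass it through 1 cell type alone. With no filter, 14 of 28 type 17 genes were called higher (median 3.21) and 13 of 25 type 1 genes lower (median -2.09). Under the strict gate, which asks for a gamma chain UMI and no Trbc1 or Trbc2 and leaves 9 γδ T cells, 6 of 15 type 17 genes were called higher with a median of 0.84, and 7 of 21 type 1 genes lower with a median of -3.46.

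Cd163l1 stood at 505, 585 and 560 CPM in γδ T cells of the CKO+RI-labelled library, Flox+RI and Flox+ICI, against 2.49, 9.51 and 5.59 in CD8 T cells (log2 fold change 6.53, SE 0.51, adjusted p 6.9e-09, edgeR). Its level was alike in the 3 sets of γδ T cells and far from every CD8 value. Blk, which is needed for interleukin-17 γδ cells in mice, had 6, 17 and 9 UMIs in γδ T cells and 0 in CD8 T cells, so it was at least 127-fold higher at a floor of 3 UMIs over the CD8 sum (adjusted p 4.6e-05, edgeR). Zbtb16 stood at 216, 468 and 265 in γδ T cells against 0, 0 and 5.59 in CD8 T cells (log2 fold change 6.64, adjusted p 4.3e-07, edgeR). The same held for Tmem176b (log2 fold change 5.36), Tmem176a (4.35), Il1r1 (4.31), the protease inhibitor gene Serpinb1a (4.11), Ramp1, a co-receptor for the neuropeptide CGRP (4.06), the transcription factor gene Maf (3.74), the leukotriene B4 receptor gene Ltb4r1 (3.34) and the alpha-actinin gene Actn2 (2.92), all higher in 3 of 3 libraries.

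**Figure D3:**
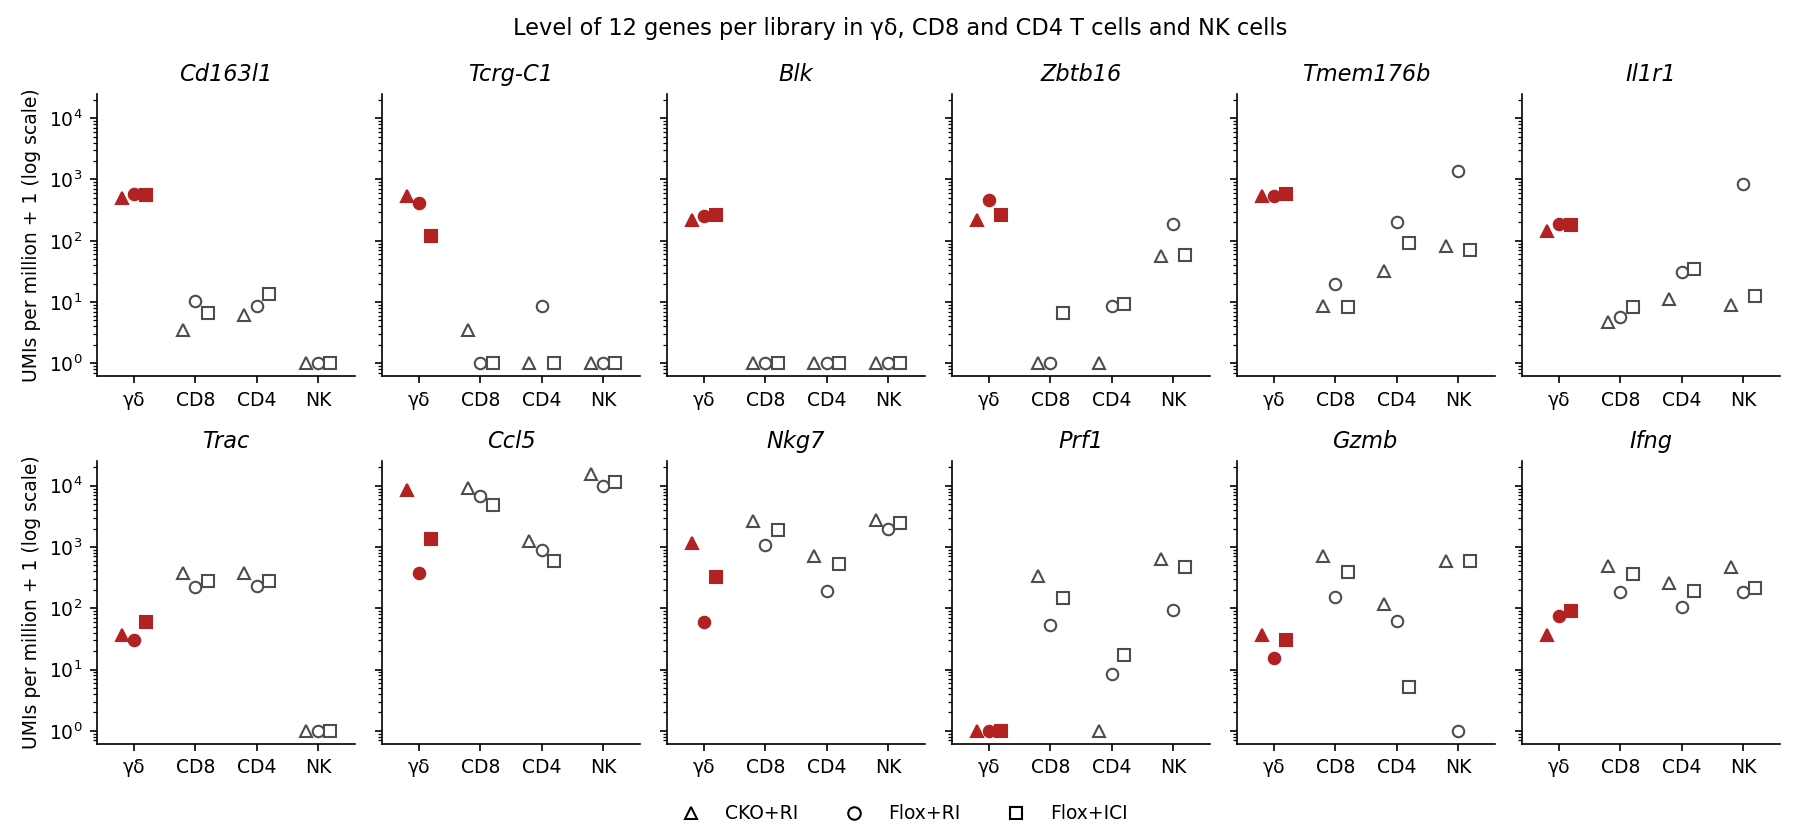
Level of 12 genes (CPM of the summed cells plus 1, log scale) in γδ T cells (filled) and in CD8, CD4 and NK cells (open), with 1 symbol per library and no error bar, since each is a single sum. Cd163l1, Tcrg-C1 and Blk are high in all 3 γδ sums and at or near the floor elsewhere, while Ccl5 in γδ T cells spans 8435 in the CKO+RI-labelled library to 380 in Flox+RI.

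Type 17 genes that were not called against CD8 T cells included Rora, with levels of 324, 790 and 855 in γδ T cells against 293, 323 and 343 (log2 fold change 0.94, adjusted p 0.12, edgeR), and Il7r (0.95, adjusted p 0.40). Il17a and Il23r were too rare for the test and were at 0 UMIs in CD8 T cells; with 7 and 11 UMIs in γδ T cells they were at least 27.8-fold and 43.7-fold higher at the floor of 3 UMIs. Outside the list, Tcrg-C1 (log2 fold change 7.50), the signalling adaptor gene Clnk (6.61) and the phospholipase C gene Plcb4 (5.05) were higher in γδ T cells, and the metalloprotease gene Adam12, with 24 UMIs against 0, was at least 95.4-fold higher at that floor.

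The 10 type 1 genes that were lower in γδ T cells than in CD8 T cells were Ifng, Prf1, Gzma, Gzmb, Nkg7, Ccl3, Ccl4, Ccl5, Klrd1 and Ly6c2. Ifng stood at 36.0, 73.2 and 88.4 CPM in γδ T cells against 486, 181 and 365 in CD8 T cells (log2 fold change -2.20, SE 0.44, adjusted p 0.0037, edgeR). No γδ value reached a CD8 value. Prf1, which encodes perforin, had 0 UMIs in γδ T cells against 354 in CD8 T cells and was at least 9.90-fold lower at a floor of 3 UMIs over the γδ sum. Gzmb, which encodes granzyme B, had 3 UMIs against 814 (log2 fold change -3.94, adjusted p 0.0031, edgeR). The chemokine genes Ccl3 (log2 fold change -3.25) and Ccl4 (-3.11), Klrd1, a killer-receptor gene (-2.19), and Ly6c2, a surface protein gene of effector T cells (-1.72), were lower in 3 of 3 libraries. Nkg7 stood at 1154, 58.5 and 324 in γδ T cells against 2638, 1065 and 1895 (log2 fold change -2.31, adjusted p 4.3e-05, edgeR), and Ccl5 at 8435, 380 and 1356 against 9228, 6867 and 4919 (-1.69, adjusted p 0.015). Gzma, which encodes granzyme A, was called lower (-2.22, adjusted p 0.032, edgeR) although it was higher in γδ T cells of the CKO+RI-labelled library, at 937 against 629 CPM.

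Some T cell receptor and signalling genes were lower as well. Trac stood at 36.0, 29.3 and 58.9 CPM in γδ T cells against 378, 219 and 277 in CD8 T cells (log2 fold change -2.88, adjusted p 0.00057, edgeR). Trbc2 was lower (-1.02, adjusted p 0.024, edgeR), and Trbc1 missed the threshold (-0.81, adjusted p 0.18). Of 15 tested signalling genes 5 were lower and 0 higher: the adhesion receptor Cd2 (-2.00), the costimulator Cd28 (-3.33), Cd6 (-3.12), the kinase Lck (-1.69) and Themis (-2.10), which T cells need at selection in the thymus. No member of the proliferation (8 tested), heat shock (13), interferon response (9), metabolic (7) or circulation (6) lists was called. Without the library block 29 genes were called, with 0 of the 21 type 1 genes and 11 type 17 genes among them, and DESeq2 called 4 type 1 and 11 type 17 genes. Ccl3, Cd2, Cd28, Ifng, Klrd1 and Trbc2 lost their call without the CKO+RI-labelled library, Ccl5, Cd2, Cd28, Cd6, Gzma, Klrd1, Lck, Ly6c2 and Prkcb without Flox+RI, and Cd2, Cd6, Gzma, Lck, Prkcb and Trbc2 without Flox+ICI. Under DESeq2 Ccl4, Ccl5, Cd28, Cd6, Gzma, Gzmb, Klrd1, Ly6c2 and Prkcb were not called.

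Against CD4 T cells, γδ T cells had higher RNA of 7 of the 19 tested type 17 genes and of 1 of the 21 tested type 1 genes, and no member of either list was called lower. CD4 T cells were gated like CD8 T cells but on Cd4 (209 cells). The test called 33 genes (1.05%), 17 higher in γδ T cells (0.542%) and 16 lower (0.51%), while DESeq2 called 22 higher and 13 lower. The median log2 fold change was 1.59 for the type 17 list against -0.03 for all genes. Under the strict gate 3 of 15 type 17 genes were called higher and the median was -0.09. Cd163l1 had 73 UMIs in γδ T cells against 5 in CD4 T cells (log2 fold change 5.81, adjusted p 3.0e-07, edgeR). Blk and Clnk had 32 and 36 UMIs in γδ T cells against 0 in CD4 T cells, at least 46.7-fold and 52.5-fold higher at a floor of 3 UMIs. Zbtb16 (5.65), Actn2 (2.68), Tmem176b (2.35), Ltb4r1 (2.32) and Ramp1 (1.59) were also higher on the log2 scale in 3 of 3 libraries. Maf, higher than in CD8 T cells, was not called against CD4 T cells (log2 fold change 0.11, 25 against 99 UMIs). Rora and Il7r were not called against CD4 T cells either.

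The sialyltransferase gene St3gal3 (log2 fold change 2.91) and Dock5, an exchange factor gene for Rac (3.05), were higher than in CD4 T cells. The type 1 list had 1 called gene, Klrk1, which encodes the activating receptor NKG2D (2.65, adjusted p 0.027, edgeR, 17 against 13 UMIs). Ifng (-1.26, adjusted p 0.38) and Ccl5 (1.36, adjusted p 0.15) were not called. Lower in γδ T cells were the costimulators Tnfrsf4 (OX40, -5.27, 1 against 172 UMIs), Tnfrsf18 (GITR, -2.69) and Cd28 (-3.94), the scavenger receptor family genes Cd5 (-2.85) and Cd6 (-3.69), Cd2 (-2.44), Themis (-1.79), Trac (-2.83) and Prkcb, a protein kinase C gene (-3.27). Plcl1, a phospholipase C-like gene, had 0 UMIs against 98 and was at least 7.46-fold lower at the floor. Without the block 19 genes were called, 4 of them of the type 17 list. Actn2, Ckb, Klrk1, Ltb4r1 and Tnfrsf18 lost their call without the CKO+RI-labelled library, these 5 and Cd2, Cd5, Dock5, Prkcb, Ramp1, St3gal3 and Themis without Flox+RI, and Dock5, Emb, Klrk1, Ltb4r1, Plcl1, Prkcb, Ramp1 and Themis without Flox+ICI. Under DESeq2 Cd5, Plcl1 and Prkcb were not called.

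Against NK cells, γδ T cells had higher RNA of 10 of 19 tested type 17 genes and lower RNA of 10 of 21 tested type 1 genes. NK cells were barcodes with Ncr1 and without CD3, Cd8b1 and Cd4 UMIs (107 cells, of which 7 in Flox+RI). The test called 115 genes (3.66%), 67 higher in γδ T cells (2.13%) and 48 lower (1.53%). The median log2 fold change was 2.20 for the type 17 list, -2.14 for the type 1 list and 0.02 for all genes. Under the strict gate 3 of 15 type 17 genes were called higher with a median of 1.07, and 9 of 21 type 1 genes lower with a median of -3.64. Cd163l1, with 73 UMIs in γδ T cells against 0, was at least 41.5-fold higher at a floor of 3 UMIs (adjusted p 5.0e-06, edgeR). Blk was at least 18.2-fold higher, and Actn2 (log2 fold change 5.17) and Ltb4r1 (5.11) stood against 1 UMI each in NK cells. The other type 17 genes called here were Serpinb1a (4.45), Cxcr6, a chemokine receptor gene (3.66), Ramp1 (3.36), Il7r (3.30), the costimulator gene Icos (3.14) and Rora (2.20).

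Of 15 tested signalling genes 3 were higher in γδ T cells than in NK cells, among them Themis and Lat, and 1 lower, the kinase gene Fyn (-1.65). Themis had 19 UMIs against 0 and was at least 10.8-fold higher at the floor, Pdcd1, which encodes the checkpoint PD-1, had 28 against 0 (at least 15.9-fold), and Trbc2 (log2 fold change 1.85) and the cytokine gene Ltb (3.0) were higher. Trac had 5 UMIs against 0 (at least 2.84-fold, adjusted p 0.044, edgeR). Perforin and the NK receptors were lower in γδ T cells: Prf1 with 0 UMIs against 122 (at least 23.8-fold), Klra8 with 0 against 70 (at least 13.7-fold) and Klra7 with 0 against 61 (at least 11.9-fold). Gzma (-4.78), Ccl5 (-2.37), Tbx21 (-2.38), Nkg7 (-2.49) and Ifng (-1.86, adjusted p 0.028, edgeR) were lower on the log2 scale. The count of calls was 75 without the CKO+RI-labelled library, with Ifng, Serpinb1a, Themis and Trac among those no longer called, 65 without Flox+ICI, with Blk, Ifng, Il7r, Rora, Serpinb1a, Trac and Trbc2 among those no longer called and 6 type 17 genes left, and 98 without Flox+RI, with Cxcr6, Icos, Serpinb1a and Trac among those no longer called. Without the block it was 73, with 8 type 17 and 5 type 1 genes. Under DESeq2 Gzmb, Klra7, Klra8, Tcrg-C1 and Trac were not called.

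**Figure D4:**
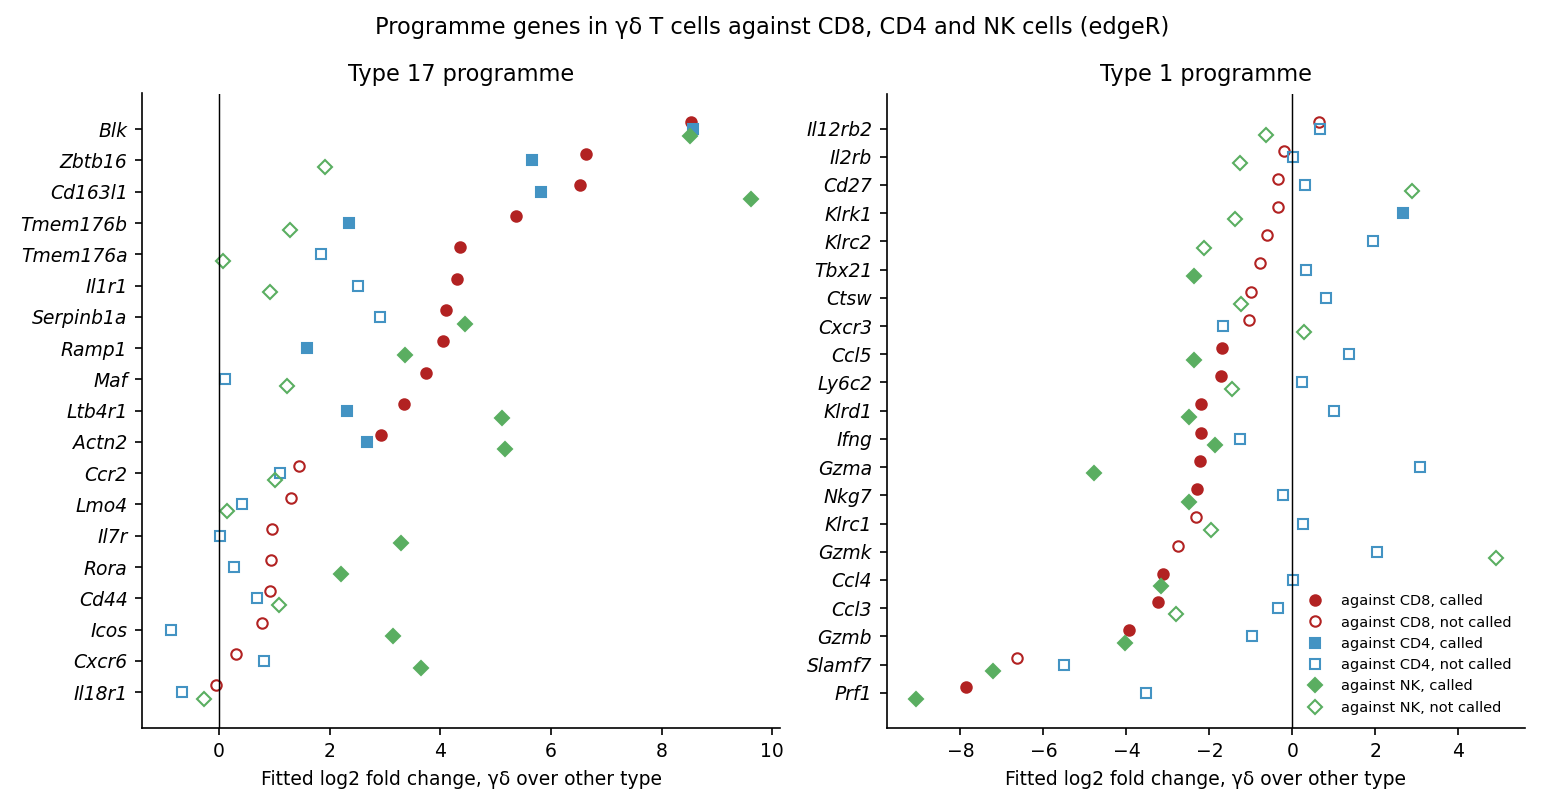
Fitted log2 fold change of γδ T cells over CD8, CD4 and NK cells for the tested genes of the type 17 list (left) and the type 1 list (right), filled where the edgeR adjusted p was under 0.05. Filled type 17 symbols all lie above 0; filled type 1 symbols all lie under 0 except Klrk1 against CD4 T cells, and fitted values of genes at 0 UMIs in a type depend on the prior count and are no bound.

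The 3 comparisons share the γδ T cells, so their overlap is given as a description. Called in all 3 were 13 genes. Of these, 10 were higher in γδ T cells each time: the type 17 genes Cd163l1, Blk, Actn2, Ltb4r1 and Ramp1, with Tcrg-C1, St3gal3, Emb, Ckb and March3. Prkcb was lower each time, though not against CD8 or CD4 T cells under DESeq2, and Trac and Themis were lower than in CD8 and CD4 T cells and higher than in NK cells. Emb, which encodes a partner of lactate transporters, had 264 UMIs in γδ T cells, with log2 fold changes of 1.26 against CD4 T cells and 2.63 against NK cells.

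Between the CKO+RI-labelled library and Flox+RI, γδ T cells differed in Ccl5, Nkg7 and Gzma by the widest ratios among the genes higher in CKO+RI. With 1 library each there was no replicate and no test, and a gene was counted when its ratio was at least 2 or at most 0.5. Of 720 genes with at least 20 UMIs together, 55 were at least 2-fold higher in the CKO+RI-labelled library (7.64%) and 103 at least 2-fold lower (14.3%), 21.9% in either direction. Ccl5 had 234 UMIs in the CKO+RI-labelled library and 26 in Flox+RI (ratio of levels 22.2, 14.8 to 34.7). Nkg7 had 32 and 4 UMIs (19.7, 6.99 to 76.7), and Gzma had 26 and 0 (ratio of at least 16.2). These are the 3 type 1 genes that could be compared. Gzma and Nkg7 reached the minimum of 20 UMIs only through the CKO+RI-labelled library, so their direction was largely set by that filter, and Ccl3 (0 and 4 UMIs), Ccl4 (5 and 0), Gzmb (1 and 1) and Prf1 (0 and 0) did not reach it. The 3 genes rest on few cells: the Gzma UMIs lay in 4 and the Ccl5 UMIs in 5 of the 10 γδ T cells of the CKO+RI-labelled library. The 4 Gzma cells held 9, 11, 5 and 1 of its UMIs. In the same order they held 1, 0, 1 and 2 gamma chain UMIs and 0, 0, 1 and 12 beta chain UMIs. Trdc was also found in 5 of 48 NK cells of the CKO+RI-labelled library, against 0 of 7 in Flox+RI. The part of NK cells in these ratios was not tested. In CD8 T cells the same genes stood at 9228 and 6867 CPM (Ccl5), 2638 and 1065 (Nkg7) and 629 and 675 (Gzma) in the CKO+RI-labelled library and in Flox+RI.

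Ms4a4b (28 and 8 UMIs, ratio 8.62) and Elf2, an ETS factor gene (16 and 5, ratio 7.88), were also higher in the CKO+RI-labelled library. Trbc1 had 25 UMIs there and 17 in Flox+RI (ratio 3.62), and the sum of Trac, Trbc1 and Trbc2 stood at 1658 and 746 CPM. Ms4a4b and Trbc1 reached the minimum only through the CKO+RI-labelled library, and the filter bears on their direction. In that library the alpha-beta sum was 0, 3, 0, 1 and 12 UMIs in the 5 Ccl5 cells and 2, 10, 6, 12 and 0 in the 5 cells without Ccl5. The part of alpha-beta chain RNA in the ratios was not tested. Of 12 type 17 genes compared, 0 were at least 2-fold higher and 5 at least 2-fold lower: Rora (ratio 0.411), Zbtb16 (0.462), Cd44 (0.411), Ramp1 (0.340) and Icos (0.284). The median log2 ratio of the 12 was -0.57, against -0.03 over all 720 genes. All 5 lower genes had at least 20 UMIs in Flox+RI alone and 3 to 9 in the CKO+RI-labelled library, so they were compared only through the library where they were high, and their direction was largely set by that. Cd163l1 (0.862) and Blk (0.869) were not past 2-fold. The chaperone gene Hsp90aa1 (7 and 62 UMIs, ratio 0.278), the class I myosin gene Myo1e (1 and 34, ratio 0.0724) and Fbxo11 (1 and 26, ratio 0.0947) were lower in the CKO+RI-labelled library, and Atp2a2, a calcium pump gene, and Itgav, an integrin gene, had 0 and 20 UMIs each. These genes too reached the minimum only through Flox+RI. Flox+ICI γδ T cells lay between for Ccl5 and Nkg7, at 1356 and 324 CPM.

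Between Flox+RI and Flox+ICI, which shares the Flox+RI library with the comparison above, Gapdh, Aldoa and Pgk1, which encode enzymes of glycolysis, were among the 5 higher genes picked by rule. Of 830 genes compared, 72 were at least 2-fold higher in Flox+RI (8.67%) and 102 at least 2-fold lower (12.3%), 21.0% in either direction. Gapdh had 260 UMIs in Flox+RI and 43 in Flox+ICI (ratio 3.0, 2.17 to 4.25), Aldoa 56 and 9 (3.09, 1.52 to 7.11) and Pgk1 33 and 3 (5.46, 1.71 to 27.8). The doublet-marked cell of Flox+RI held 9566 of the 68334 UMIs of its sum, and what it adds to these genes is not given here. Gapdh and Aldoa are on none of the lists. Of 4 genes of the lipid and metabolic list, which holds Pgk1 and 12 others, that could be compared, 3 were at least 2-fold higher, and the median log2 ratio was 1.17 against -0.01 over all genes. The 3 (Pgk1, Pkm with 83 and 18 UMIs, and Fabp5 with 20 and 4) and Aldoa reached the minimum only through Flox+RI, whose sum was the larger, and the filter bears on their direction. Gapdh was higher in Flox+RI in macrophages too (4888 and 2757 CPM) and less so in CD8 T cells (2392 and 2182).

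The proteasome subunit gene Psma7 (36 and 3 UMIs, ratio 5.96) and Myo1e (34 and 4, ratio 4.22) were also higher in Flox+RI, and they too were compared only through that library. Lower in Flox+RI were Zfp36l1, which encodes an RNA-binding protein that drives mRNA decay (8 and 29 UMIs, ratio 0.137), Rapgef2 (5 and 19, ratio 0.131), Dhx40 (7 and 35, ratio 0.0993) and Homer1 (3 and 18, ratio 0.0828). Zfp36l1 and Dhx40 were compared only through Flox+ICI, and the filter bears on their direction. Scgb1a1, a secretory protein gene of airway club cells, had 5 UMIs in Flox+RI and 38 in Flox+ICI (ratio 0.0653), and it too was compared only through Flox+ICI. It stood at 90.4 and 655 CPM in CD8 T cells and at 40.1 and 761 in macrophages of the same libraries. The type 17 list did not move together, with 2 of 12 genes at least 2-fold higher (Icos, 3.23, and Actn2, 2.28) and 1 at least 2-fold lower (Il7r, 0.367), and a median log2 ratio of -0.04. Icos, Actn2 and Il7r were each compared only through the library where they were high. Of the type 1 list, Ccl5 (26 and 46 UMIs, ratio 0.281) and the cathepsin gene Ctsw (10 and 12, ratio 0.414) could be compared, and both were lower in Flox+RI.

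**Figure D5:**
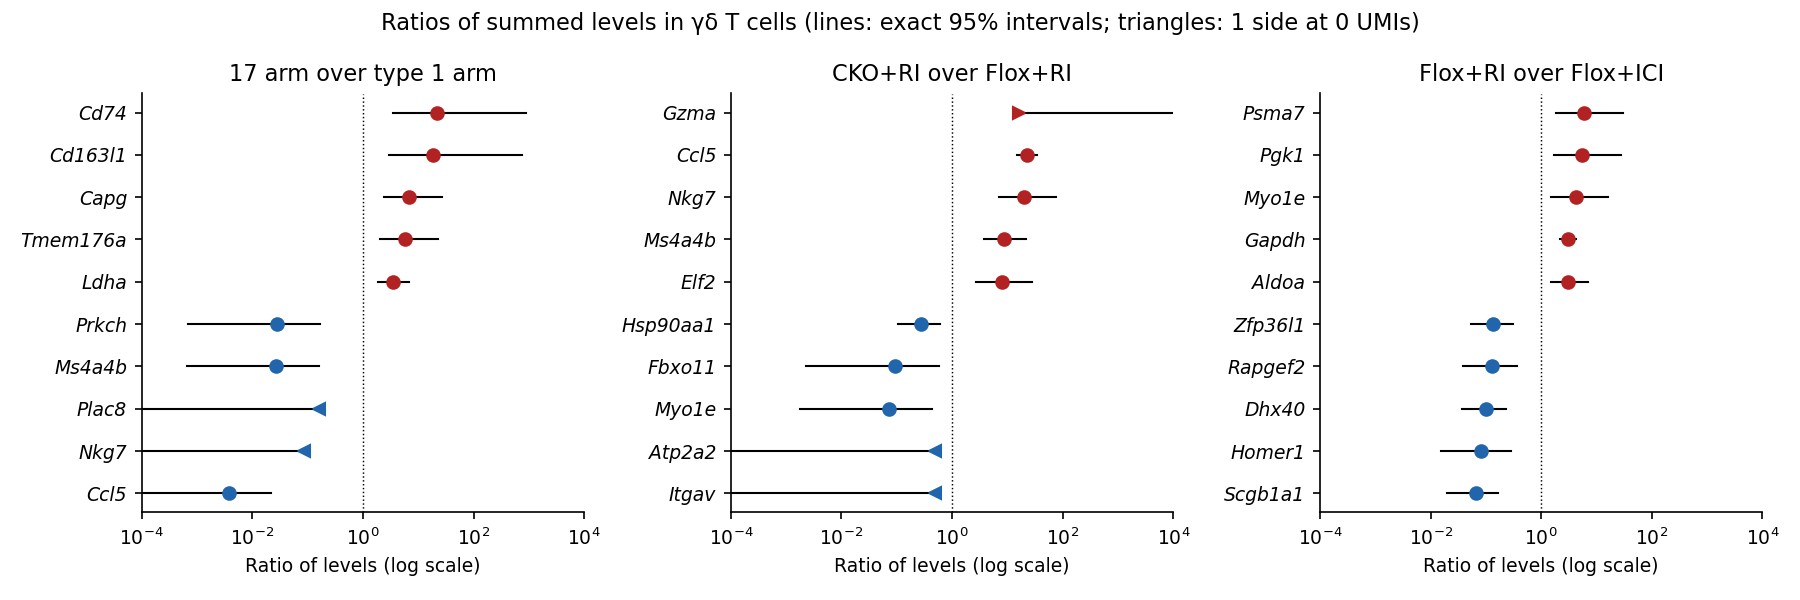
Ratio of summed levels (log scale) for the genes picked by rule in the 17 arm over the type 1 arm, the CKO+RI-labelled library over Flox+RI, and Flox+RI over Flox+ICI, with red for higher and blue for lower. Lines are exact 95% intervals for counting error only and triangles mark a bound where 1 side held 0 UMIs; Ccl5 and Nkg7 appear among the low genes of the first panel and the high genes of the second.

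RNA of other cell types was present at low levels in γδ T cells. Sftpc, a surfactant gene of alveolar epithelium, was found in 39 of 57 γδ T cells (68.4%), in 64.5% of CD8 T cells and in 70.2% of macrophages. The macrophage markers summed to 505, 307 and 884 CPM in γδ T cells of the CKO+RI-labelled library, Flox+RI and Flox+ICI, with Adgre1 at 0 in all. The neutrophil markers summed to 288, 176 and 766, with Csf3r at 0, and the epithelial markers to 1009, 293 and 707, with Epcam at 0. These sums were lowest in Flox+RI, as were Ccl5 and Nkg7 in γδ T cells, while the endothelial markers (108, 249 and 177) and the fibroblast markers (0, 43.9 and 0) were highest there. The part of these markers in the differences between libraries was not tested. Of the 6 NK markers 3 had UMIs, with sums of 937, 14.6 and 118 CPM, of which the first was Gzma alone, and Klra8, Klra4 and Ncr1 were at 0. Foxp3, which defines regulatory T cells, was at 0 in all 57 γδ T cells, and the other 2 markers of that list had 33 UMIs in 19 cells. Il5 and Il13 of type 2 lymphoid cells were at 0, and the other 3 markers of that list had 12 UMIs in 12 cells, at 72.1, 132 and 29.5 CPM in the 3 libraries. Ms4a1 of B cells was at 0, and 2 of the 4 B cell markers had 6 UMIs in 6 cells. The 3 dendritic cell markers were at 0.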

How the data were processed

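Single-cell RNA-seq of 3 libraries of mouse tumour tissue was used, 1 library per group, and the titles gave the groups. Deposited values are raw UMI counts per gene and barcode, for 32285 genes and with every barcode at 500 UMIs or more. Per the submitters' processing notes Cell Ranger 6.0 was used by the authors on mm10 (GRCm38), while the file headers name 6.1.2; the notes also name Seurat 5.0.3. The library chemistry, the strand setting and the annotation behind the counts are not given in the sources used here.

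The cells, gene lists and tests were chosen with earlier results of these data known. Barcodes were gated on raw counts as the report states, with no clustering. Doublets were kept; scrublet in scanpy 1.11.5 marked 0.8% per 1000 barcodes for an alternative without them. Because cell types share a library, UMI counts summed per library and cell type were tested with edgeR 4.0.16 (R 4.3.3; TMM, filterByExpr, glmQLFit, library as a block), and genes of the gates were left out. The p-values therefore set a difference between cell types against its spread over 3 libraries. 1 gene planned for the 17 arm and the type 17 list is not reported here, so the arm was defined, after the data were seen, by the other 3. The planned fit between the arms needed 10 cells per arm and library and could not be made. Libraries and arms were compared by ratios of summed UMIs with exact conditional binomial 95% intervals, which cover counting error only. At 0 UMIs, 3 counts over the summed cells were used as the floor. Sums of γδ T cells held 27741 UMIs (CKO+RI-labelled library), 68334 (Flox+RI) and 33930 (Flox+ICI), which limits what rare genes can show.

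Genes named were the 10 highest and 5 lowest fold changes past the threshold with 1 direction in every library, for libraries and arms the 5 highest and 5 lowest by the bound nearest to 1, and members of the lists; Atrnl1, Aoah and Xdh (against NK cells) also met this rule. Ribosomal, mitochondrial and unnamed genes were left out. Emb, Ckb and March3 were named after their values were seen. The scripts were tested on simulated data. Alternatives were DESeq2 1.42.0, no TMM, no filter, no block, each library left out, no marked doublets, at most 10% mitochondrial UMIs, a strict gate (also a gamma chain UMI and none of Trbc1 and Trbc2), Trdc of at least 2, thinning to 1000 UMIs and other count minima.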

Additional observations from a re-analysis of the deposited data

Results flagged for a closer look

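For 7 of 145 gene and comparison pairs of the named and list genes, γδ T cells were higher than the other type in 1 or more libraries and lower in another, with intervals for counting error that exclude 1 on both sides. The difference between libraries was not tested, since each is a single library.

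Against CD8 T cells, the chemokine receptor gene Cxcr6 had a ratio of 0.337 in the CKO+RI-labelled library (4 UMIs in γδ T cells, 343 in CD8 T cells) and of 8.00 in Flox+RI (13 and 5 UMIs). Against CD4 T cells, Ccl5 had ratios of 6.72 in the CKO+RI-labelled library (234 and 245 UMIs), 0.424 in Flox+RI (26 and 119) and 2.26 in Flox+ICI (46 and 145). Nkg7 had ratios of 1.60 in the CKO+RI-labelled library (32 and 141 UMIs) and 0.310 in Flox+RI (4 and 25). Ccl4 had a ratio of 5.86 in the CKO+RI-labelled library (5 and 6 UMIs) and of at most 0.865 in Flox+RI (0 and 10). Against CD4 T cells, then, these 3 type 1 genes were higher in γδ T cells of the CKO+RI-labelled library and lower in those of Flox+RI.

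Against NK cells the library that differed was Flox+RI each time, where 7 NK cells were found. Il1r1 had ratios of 18.0 in the CKO+RI-labelled library (4 and 1 UMIs), 0.227 in Flox+RI (13 and 9) and 15.2 in Flox+ICI (6 and 1). Tmem176a had ratios of 2.70 (9 and 15 UMIs), 0.233 (40 and 27) and 7.10 (14 and 5) in the same order. Tmem176b had ratios of 6.76 (15 and 10 UMIs), 0.377 (36 and 15) and 8.45 (20 and 6). In γδ T cells themselves the level of Tmem176b was 541, 527 and 589 CPM, so the libraries differed in the NK sums. In Flox+RI 1 of the 7 NK barcodes held all 15 UMIs of Tmem176b, all 9 of Il1r1 and 26 of the 27 of Tmem176a, and it also held 10 UMIs of Col1a1 and 13 of Col1a2, collagen genes of fibroblasts.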

How the results depend on the processing

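Few cells, single libraries and rare transcripts limit these results. Of the 69 calls against CD8, 33 against CD4 and 115 against NK cells, the count was 107 and 59 with no filter (CD8, CD4), 29, 19 and 73 without the library block, and 186 (16 higher, 170 lower) and 159 (9 and 150) under the strict gate (CD8, CD4). The strict gate leaves 2, 4 and 3 cells in the CKO+RI-labelled library, Flox+RI and Flox+ICI, and the cause of its higher counts was not tested. Leaving out each library gave 47 to 70, 23 to 33 and 65 to 98 calls (CD8, CD4, NK). DESeq2 (67, 35, 110), no TMM (74, 33, 130), no marked doublets (70, 44, 127), the 10% mitochondrial limit (70, 33, 124) and, chosen after seeing the data, no Flox+RI NK cells (83, 39, 130) stayed within 1.5 times. At an unadjusted p under 0.05 there were 317, 278 and 475 genes. Share of γδ T cells: the strict gate gave 0.0221% (CKO+RI-labelled library), 0.0306% (Flox+RI) and 0.0281% (Flox+ICI), and Trdc of at least 2 gave 0.0664%, 0.0841% and 0.0842% in the same order. The 17 arm share in the CKO+RI-labelled library was 20% (1 of 5 cells) after thinning, against 0. It was 55.6% in Flox+ICI with Trdc of at least 2; the type 1 arm share under the strict gate and with Trdc of at least 2 was 0 and 0 in Flox+RI and 0 and 11.1% in Flox+ICI. Genes past 2-fold between the CKO+RI-labelled library and Flox+RI (158) were 30 after thinning, 8 under the strict gate, 510 with at least 10 UMIs and 23 with at least 50; between Flox+RI and Flox+ICI (174) they were 43, 12, 604 and 22. Between the arms (91) they were 44 to 93 without 1 library, 13 under the strict gate and 43 with arms from Il17a and Ifng alone. Fewer genes reach the minimum in smaller sums. Among single genes 1026 values stayed the same. For tested genes this means the same direction and side of the threshold. For ratios of libraries and arms, where nothing was tested, it means the same direction and a ratio within the main interval. Of the others 148 lost their call, 5 gained one, 5 moved and 5 changed sign. The 5 were Ckb against CD4 (-0.86), Maf against CD4 (-0.45) and Trbc2 against NK cells (-7.801, where the gate removes Trbc2) under the strict gate, and Maf against CD4, never called, with no filter (-0.11) and without Flox+ICI (-0.38, and -0.38 to 0.43 without 1 library). DESeq2, no TMM, no filter and no block for the arms were not run, since the arms could not be fitted.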
